A study of Mus musculus with 4 samples.

Results

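The 3 Runx transcription factor genes, Runx1, Runx2 and Runx3, and Cbfb, the gene of their common partner protein, were followed through the RNA of mouse regulatory T cells. The members were taken by gene symbol, with no threshold on a measured value, and all 4 were found among the 50600 genes counted. Regulatory T cells are the branch of the CD4+ T lineage that holds immune responses in check, and Foxp3 is the transcription factor that defines them. The libraries were 4 in number and formed 1 group: primary cells of the C57BL/6NJ strain, each library with its own biosample and all with 1 shared donor record, age unknown and sex not collected. No treatment or genetic change is named in the labels, while the aligned files named in the count tables' headers carry the words activated and 48h. The assay is labelled as total RNA-seq, although its linked library protocol is named for polyadenylated RNA. Nothing states that the biosamples came from separate animals or cultures, so the p-values cover the spread of these biosamples alone, and some of that spread may be technical.

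Runx proteins bind DNA through the Runt domain, the part that gives the family its name. Cbfb encodes core binding factor beta, which does not touch DNA itself but joins the Runt domain, strengthens its hold on DNA and protects the Runx protein from degradation. In T cells Runx1 and Runx3 are known for silencing Cd4 or Zbtb7b in the CD8 lineage, for acting on cytokine genes, and for binding with Cbfb at the Foxp3 locus and maintaining Foxp3 expression. Runx1 is also known as a master factor of blood stem cells, and Runx2 as that of bone-forming cells.

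The promoter sequences show what the 3 Runx genes have in common before any level is considered. Mouse RefSeq promoter windows on GRCm38.p6, running from 250 bases before to 50 bases after a start site, were found for all 4 genes. Runx1 and Runx3 each had a distal and a proximal window, as this family is known to use alternative promoters, while Runx2 and Cbfb had 1 window each. The longest run of letters common to the distal windows of Runx1 and Runx3 and the Runx2 window was 18 bases. It is printed here in capitals within 30 bases of each gene's own strand, because it holds the Runx recognition motif ACCACA at 2 places.
Runx1: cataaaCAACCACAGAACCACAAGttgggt
Runx2: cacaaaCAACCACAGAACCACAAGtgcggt
Runx3: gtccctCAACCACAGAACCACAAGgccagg
The Runx1 stretch lies at chr16:92826025-92826054 on the minus strand, and the run covers bases 27 to 44 counted from the start site. In Runx2, at chr17:44814583-44814612 on the minus strand, the run covers bases 22 to 39. In Runx3, at chr4:135120503-135120532 on the plus strand, it lies before the start site, from -136 to -119. Runx1 and Runx2 have a longer run in common, of 22 bases.

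Of 32851 mouse windows in the RefSeq table, 4 held the 18-base run on either strand, 0.0122%. They belonged to the 3 Runx genes, whose windows hold the run by the way it was chosen, and to Gm16225. The latter is a non-coding gene on the other strand whose window overlaps the distal window of Runx3, so that it is the same DNA. ACCACA, or TGTGGT when read on the other strand, stood in 16.8% of all windows, and at 2 or more places in 1.81%. It matched at 2 places in the distal windows of Runx1 and Runx3 and at 3 in that of Runx2. The related motif ACCGCA, read on the other strand as TGCGGT, stood in 6.45% of windows and once among the members, in the last letters of the Runx2 stretch above. Neither motif overlapped the other. Neither was found in the proximal windows of Runx1 and Runx3 or in the Cbfb window. These windows also differed in base composition. G and C made up 45.0% of the distal Runx1, 45.3% of the Runx2 and 63.7% of the distal Runx3 window, against 69.0% and 77.3% of the proximal Runx1 and Runx3 windows and 69.7% of the Cbfb window. A match is a description of letters only, and factor binding was not measured in these cells.

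**Figure D1:**
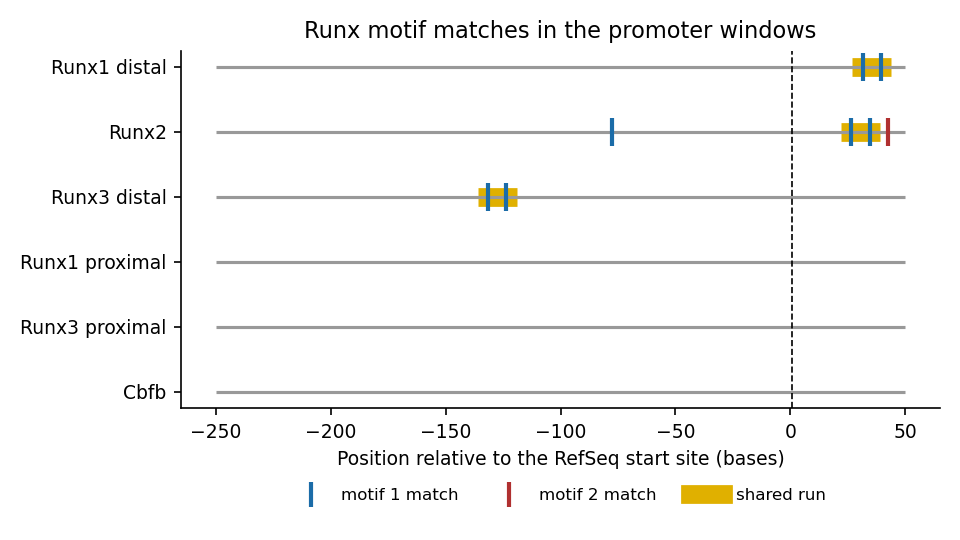
Positions of Runx motif matches in the 6 RefSeq promoter windows of the members, in bases relative to the start site (dashed line). Blue ticks mark ACCACA, the red tick marks ACCGCA (either strand), and the yellow bars mark the shared 18-base run, which lies after the start site in Runx1 and Runx2 and before it in Runx3.

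The libraries and the identity of the cells were checked first. Totals ran from 43821767 to 73819468 counts per library. Levels are in TPM, a measure of transcript abundance for which counts are first divided by the exon length of the gene and then scaled to the same sum in each library. Expressed here means that no library fell below 1 TPM, and 11593 genes (22.9%) met this. All 13 markers of T and regulatory T cells were expressed, with Foxp3 at 289 ± 23.5 (SD, n = 4). Of the other lists, 2 of 9 markers of CD8 and NK cells, 1 of 6 of B cells, 2 of 8 of myeloid cells and 1 of 8 of progenitors and megakaryocytes were expressed. The summed CD8 and NK list lay between 75.7 and 99.6 TPM, almost wholly Nkg7 at 72.1 and Cd8b1 at 11.7, while Ncr1 had 0 counts. Summed B cell markers lay between 3.34 and 4.11 TPM, mostly Cd79b at 3.11. Myeloid markers lay between 4.56 and 6.50, mostly Cd68 at 4.23 and Adgre1 at 1.30, with Lyz2, S100a8, S100a9 and Fcgr1 at 0 counts. Progenitor and megakaryocyte markers lay between 6.11 and 8.52, mostly Kit at 5.12 and Gata1 at 1.37. Because the RNA is from bulk cells, fewer cells of a type and less RNA per cell cannot be told apart. The X-linked Xist was at 172 and 145 TPM in replicates 1 and 2 but at 0.255 and 0.367 in replicates 3 and 4, and Y-linked Ddx3y was at 0.152, 0.0781, 45.1 and 45.0, so the libraries stand in 2 pairs for these genes despite the single donor record.

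Cbfb, the partner, was the most abundant member. It stood at 177, 181, 186 and 163 TPM in replicates 1 to 4, a mean of 177 ± 9.97 (SD, n = 4). Replicate 4 stood lowest, and the highest library exceeded it 1.14-fold. The gene (ENSMUSG00000031885.14) lies at chr8:105170674-105217989 of mm10 on the plus strand, with 3480 bases of merged exon, and it gathered 7763 to 14025 counts per library. It ranked 1094 of the 11593 expressed genes, above 90.6% of them.

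Runx3, the Runx gene known best for the CD8 and cytotoxic programme, was the most abundant of the 3 factors. It reached 86.6, 77.0, 75.8 and 89.3 TPM in replicates 1 to 4, a mean of 82.2 ± 6.77 (SD, n = 4). Replicates 1 and 4, the libraries with the fewest counts, were the high ones, and the highest library exceeded the lowest 1.18-fold. Whether depth had a part in this order was not tested. Runx3 (ENSMUSG00000070691.10) occupies chr4:135120652-135177990 on the plus strand, with 5003 exon bases and 5474 to 8210 counts per library, and ranked 2558 among expressed genes.

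Runx1 followed at 24.2, 23.3, 23.0 and 25.5 TPM, a mean of 24.0 ± 1.16 (SD, n = 4). The 4 libraries lay within 1.11-fold of each other. This level was near the middle of expressed genes, whose median was 28.6 TPM, and gave Runx1 rank 6312. The gene (ENSMUSG00000022952.16) spans chr16:92601466-92826149 on the minus strand, 224684 bases with 11827 of exon, and had 3617 to 5877 counts per library.

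Runx2 did not reach 1 TPM in any library and measured 0.681, 0.492, 0.669 and 0.511, a mean of 0.588 ± 0.101 (SD, n = 4). It was detected in each, with 76, 75, 128 and 68 counts. The exact 95% Poisson intervals of these levels, which cover counting error only, ran from 0.536 to 0.852, 0.387 to 0.617, 0.558 to 0.796 and 0.397 to 0.648 TPM and all overlapped. The gene (ENSMUSG00000039153.16) spans chr17:44495987-44814797 on the minus strand with 8837 exon bases. None of 9 bone and cartilage markers, several of them genes Runx2 is known to drive, was expressed by the rule that covers all libraries. Spp1 averaged 0.951 TPM but reached 1.63 and 1.16 in replicates 1 and 2. Alpl averaged 0.945 but reached 1.44 in replicate 2. Sp7 averaged 0.178, and Ibsp, Mmp13 and Col10a1 had 0 counts. A low level can also come from few cells, which these data do not resolve.

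The order Cbfb, Runx3, Runx1, Runx2 held in 4 of 4 libraries with no overlap between neighbours. Within a library, Cbfb exceeded Runx3 by 1.11 ± 0.20 (SD) on the log2 scale, 2.15-fold. Runx3 exceeded Runx1 by 1.77 ± 0.06, 3.42-fold, the steadiest of the 3 steps, and Runx1 exceeded Runx2 by 5.36 ± 0.28, 41.2-fold. Each step gave p = 0.13 when the signs of the 4 log2 ratios were flipped in all 16 ways (exact permutation test, two-sided), and also 0.13 after adjustment over the 3 pairs, which is the smallest value that this test gives with 4 libraries. It therefore cannot reach the threshold of 0.05 here.

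**Figure D2:**
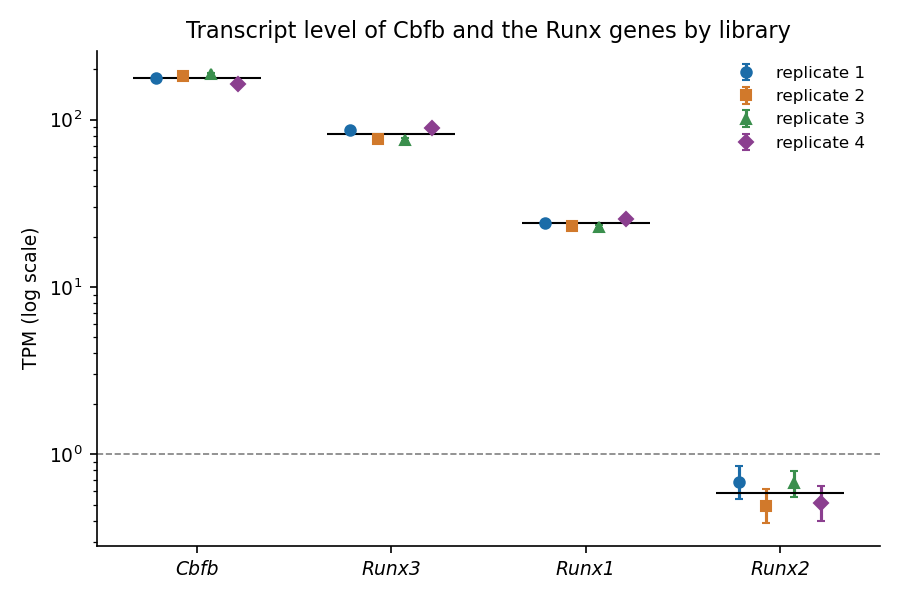
Level of the 4 members in each library, in TPM on a log axis. Points are libraries with exact 95% Poisson intervals, which are wide only for Runx2, black lines are means and the dashed line is a TPM of 1; the members' ranges do not overlap.

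The make-up of the family was nearly constant between libraries. Runx3 gave 76.9 ± 0.71% (SD, n = 4) of the summed Runx level, Runx1 22.5 ± 0.69% and Runx2 0.554 ± 0.106%. Cbfb RNA exceeded the 3 Runx genes together 1.58-, 1.80-, 1.87- and 1.41-fold in replicates 1 to 4, a mean ratio of 1.67 ± 0.21. On the log2 scale the ratio was 0.73 ± 0.18, above 0 in 4 of 4 libraries (exact sign-flip permutation p = 0.13, again the smallest this test gives). The summed Runx level itself was 111.5, 100.8, 99.4 and 115.3 TPM, so the ratio was lowest in replicate 4, where Cbfb was lowest and the Runx sum highest.

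The sizes of these ratios rest on the length by which counts are divided. In the number of fragments, not per length, Cbfb lay below the summed Runx genes, at 0.847, 0.949, 0.987 and 0.753 of their counts, and its summed exons are the shortest of the 4. Runx1 had by far the largest excess of merged exon over any single transcript, 11827 against 5861 bases for its longest one. With the longest transcript as the length, Runx1 was at 38.3 TPM in place of 24.0, Runx3 at 83.7 and Cbfb at 168. Runx3 then exceeded Runx1 2.18-fold in place of 3.42-fold and gave 68.2% of the Runx sum. The ratio of Cbfb to the Runx sum was 1.38 ± 0.17, still above 1 in every library, and the order of the members did not change. Which isoforms these cells used was not measured.

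**Figure D3:**
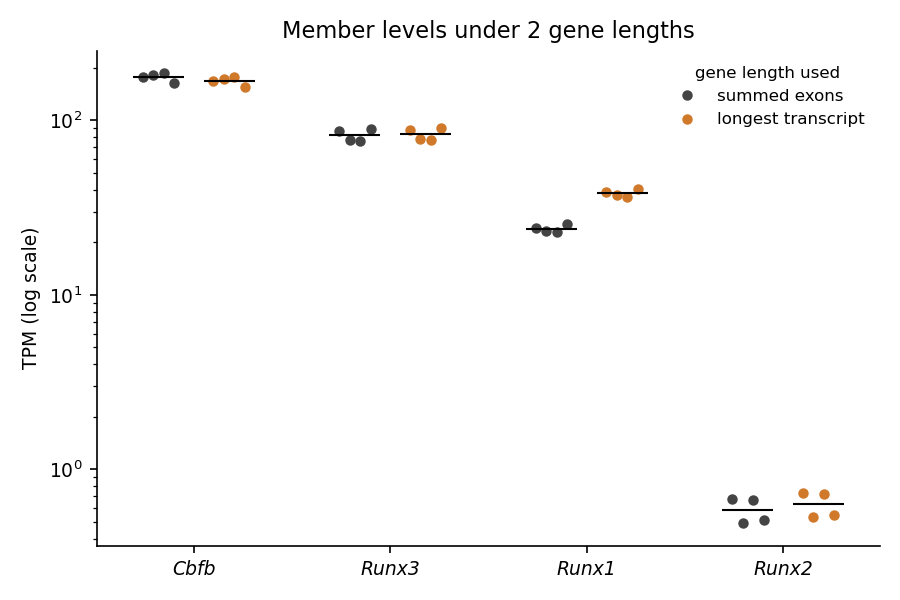
Level of the members in TPM on a log axis when counts are divided by summed exon length (grey) or by the longest transcript (orange), 1 point per library in the order of replicates 1 to 4, with black lines at the means. Runx1 moves from 24.0 to 38.3 TPM, and the order of the 4 genes stays.

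Runx1 and Runx3 shared their order over the libraries, highest in replicate 4, then 1, 2 and 3, and Cbfb had exactly the reverse order. The differences behind these orders passed no test, and with 4 libraries no correlation is given. None of the 4 members split into the pairs of libraries seen for Xist and Ddx3y. Foxp3, at 294, 269.9, 272 and 320.4 TPM, was also high in replicates 4 and 1 but had its lowest value in replicate 2. The coefficient of variation over libraries was 4.84% for Runx1, 5.64% for Cbfb and 8.24% for Runx3, against a median of 6.52% over expressed genes. Runx2 varied by 17.1%, where counting error alone would give a coefficient of 11.0%. Without replicate 4 the coefficients of Runx1 and Cbfb were 2.79% and 2.63%.

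Each replicate was set against the other 3 over all genes, taking the spread of the single library to be that of the other 3, and no member passed the test. At an adjusted p of 0.05 (edgeR quasi-likelihood test, Benjamini-Hochberg), 0 of 16 member tests were called, and 0 had an unadjusted p under 0.05. DESeq2 also called 0. Of 12917 genes tested, 0.0697% were called in replicate 1, 0% in each of replicates 2 and 4, and 0.0232% in replicate 3. These few calls moved with the libraries used: leaving out 1 of the other 3 gave 23 to 341 genes for replicate 1 (112 without replicate 2, 341 without replicate 4), 3 to 52 for replicate 2 (52 without replicate 1), 16 to 21 for replicate 3 and 2 to 9 for replicate 4. No member was called in any of these fits. At an unadjusted edgeR p under 0.05 stood 1202, 876, 299 and 322 genes, and DESeq2 called 18, 28, 8 and 0. The members closest to a difference were Cbfb in replicate 4, with a log2 difference of -0.16 (SE 0.08, unadjusted p = 0.0744), and Runx3 in the same library, at 0.16 (SE 0.09, unadjusted p = 0.0852). The smallest adjusted p of any member in the edgeR fit was 0.749. Runx2 had the largest differences, from -0.33 to 0.28, each with an SE of 0.39 to 0.41.

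**Figure D4:**
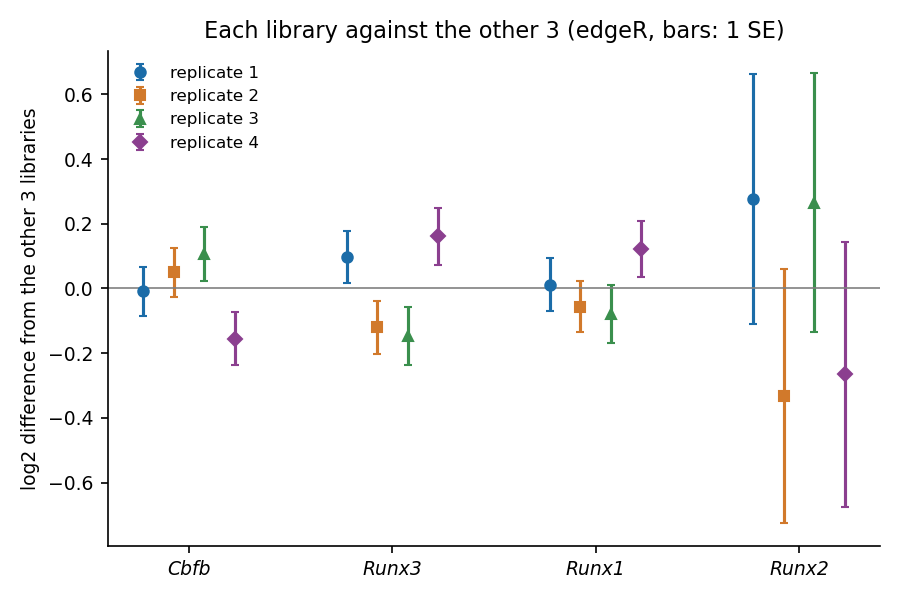
Log2 difference of each replicate from the other 3 for the 4 members, fitted with edgeR, with bars of 1 SE. Cbfb and Runx3 lie on opposite sides of 0 in replicate 4, at -0.16 and 0.16, and no difference passed the test.

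The genes whose level followed that of a member most closely over the 4 libraries were ranked by the root mean square distance of centred log2 TPM. For Runx1 these included Napa (0.0030) and Tm7sf2 (0.0050), and for Runx3 they were Tpra1 (0.0085), Synj2 (0.011) and Rac2 (0.013). Napa, a vesicle fusion adaptor, was at 121, 116, 114 and 127 TPM, and Rac2, a small GTPase of blood cells, at 826, 741, 727 and 839. For Cbfb they were Uqcrq (0.0053), Mob1b (0.0096) and Nfyb (0.0099), and for Runx2 Lrp11 (0.020), Atp6v1g2 (0.024) and Prkcz (0.036). The nearest genes were thus farther off for Runx2, the member with the fewest counts. Closeness over 4 libraries of 1 group was given as a description, chosen from 11593 genes.

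The corepressors of Runx proteins were mostly present. Of 14 genes on the list, 11 (78.6%) were expressed, with a median of 60.5 TPM. The share over all genes in the files, non-coding genes included, was 22.9%. A share over protein-coding genes alone is not given. The pathway lists were chosen with earlier results of these data known, so their shares are descriptions only. The highest were Tle5 (listed as Aes in the gene names used), the short member of the Groucho family, at 279 ± 14.0 TPM, the histone deacetylase Hdac1 at 168 ± 8.89, the nuclear receptor corepressor Ncor1 at 103 ± 4.32 and the histone methyltransferase Suv39h1 at 89.7 ± 2.82 (SD, n = 4). Full-length Groucho corepressors bind the carboxyl end of Runx proteins, and among these Tle3 was at 62.3, Tle4 at 30.2 and Tle1 at 11.2. Tle2 was lowest of those detected, at 0.385 ± 0.245. Of the ETO family, Cbfa2t2 stood at 16.2 TPM, while Cbfa2t3 and Runx1t1, the gene that fuses with RUNX1 in leukaemia, had 0 counts in every library, which allows up to 0.0284 and 0.0298 TPM.

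Coactivators and DNA-binding partners were expressed in 8 of 10 cases (80.0%, beside 22.9% of all genes), with a median of 28.5 TPM. Ets1, which binds DNA together with Runx1, was highest at 232 ± 6.99 TPM (SD, n = 4), and its lowest library, at 224, lay above the highest Cbfb value. The ETS factor Elf4 was at 79.3 ± 3.96, the acetyltransferase Kat6a at 62.3 ± 4.99 and the methyltransferase Kmt2a at 37.8 ± 4.17. The acetyltransferases Ep300 and Crebbp lay at 35.0 and 22.0, near Runx1, and Myb at 18.7. At the low end were Kat6b at 6.36 ± 0.514 and the Hippo pathway effectors Yap1 at 0.217 ± 0.086 and Wwtr1 at 0.083 ± 0.066, which are known to bind Runx proteins in epithelial and bone cells.

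All 17 listed enzymes or adaptors that modify Runx proteins or mark them for degradation were expressed, with a median of 121 TPM. The share over all genes, non-coding genes included, was 22.9%. Cdc20, an activator of the anaphase-promoting complex and a gene of dividing cells, was highest at 508 ± 22.9 TPM. The kinase Pim1 followed at 405 ± 20.1, the arginine methyltransferase Prmt1 at 399.6 ± 7.89 and the ubiquitin ligase Stub1 at 176 ± 3.31. Smurf1, Smurf2 and Wwp1, ligases known to act in degrading Runx2, were at 27.1, 30.3 and 23.8 ± 1.24. The kinases Src and Hipk2 were lowest at 12.1 ± 1.77 and 4.81 ± 0.771.

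Genes that Runx factors are known to act on in T cells covered a wide range of levels. Of 20 on the list, 13 (65.0%, beside 22.9% of all genes) were expressed, with a median of 9.54 TPM. The highest were Il2ra, the interleukin 2 receptor chain, at 1488 ± 19.4 TPM, Cd4 at 611 ± 25.4, Tnfrsf18 at 580.2 ± 18.2 and Ctla4 at 444 ± 27.4, of which Il2ra, Tnfrsf18 and Ctla4 are typical of regulatory T cells. Zbtb7b, the factor of the CD4 lineage that Runx3 silences in CD8 cells, was at 81.1 ± 2.98, close to the level of Runx3 itself. Lineage factors of other helper cells were present at lower levels, with Gata3 at 44.2 and Tbx21 at 8.99, and Il2, a gene repressed by Foxp3 with Runx1, was at 15.1. Several cytotoxic and CD8 genes were below 1 TPM on average: Gzmb was at 0.793, Cd8a at 0.187 ± 0.0869 and Prf1 at 0.166 ± 0.159, next to Il4 at 0.286 ± 0.339 and the integrin gene Itgae at 0.419. Over these 4 lists, with 11, 9, 17 and 15 genes fitted, median log2 differences of a replicate from the other 3 were small. They lay between -0.067 and 0.138, both ends in the coactivators and partners, against -0.0052 to -0.0010 over all genes. Calls within the lists are not given, because hardly any of all genes were called.

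**Figure D5:**
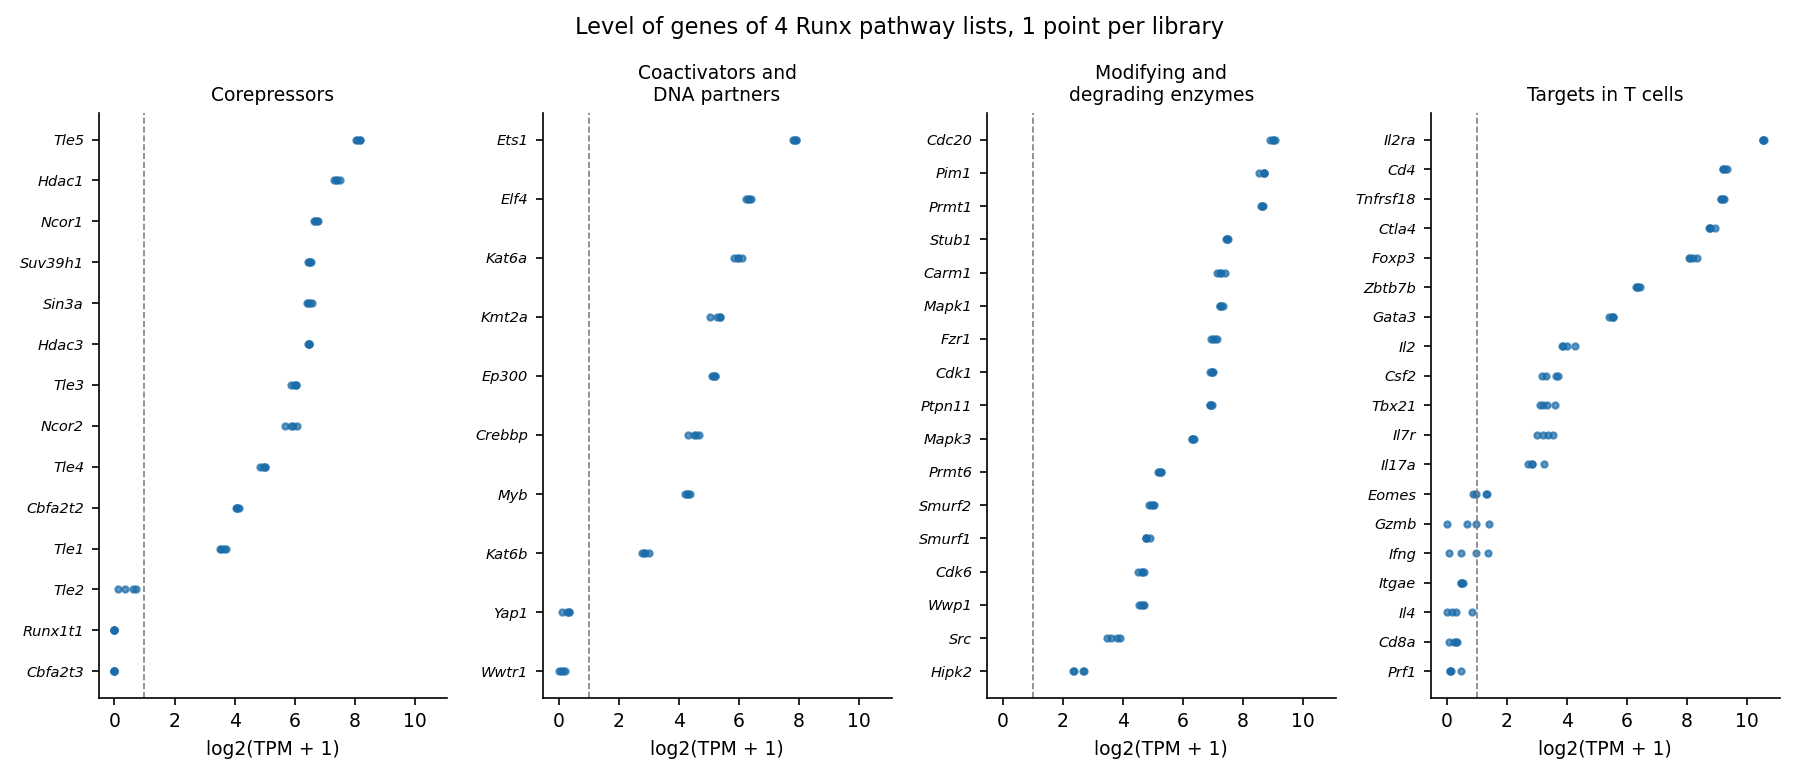
Level of genes of the 4 pathway lists, as log2(TPM + 1), with 1 point per library and the dashed line at a TPM of 1. Most corepressors, coactivators and modifiers lie to the right of the line, whereas the T cell targets range from Il2ra at 1488 TPM to Prf1 at 0.166.

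The motif ACCACA was also sought in the promoter windows of these lists. It stood in a window of 5 of 17 target genes with a window (29.4%), 2 of 9 corepressors (22.2%), 0 of 8 coactivators and partners, and 2 of 13 modifiers (15.4%), beside 18.9% of all 27025 genes with windows. Enhancers and silencers, through which Runx factors are known to act at Cd4 and Foxp3, lie outside such windows.

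Each Runx gene has a member of the Clic family of chloride intracellular channel genes as a neighbour, and these neighbours differed in level. Clic4, 35978 bases from Runx3, was at 130.0, 133, 133 and 122 TPM (129.5 ± 5.22, SD, n = 4), above Runx3 in every library. Clic6, 60222 bases from Runx1, had 2 counts in all libraries together, and Clic5, 215818 bases from Runx2, had 4. The expressed Clic gene was thus the one beside the most abundant Runx gene, in a set of 3 pairs, and no relation was tested. On the far side of Cbfb, D230025D16Rik was at 18.9 ± 0.43 TPM, and Gm3830, 306 bases before Cbfb, had 0 counts, which allows up to 0.138 TPM. The nearest genes on the other side of Runx1 and Runx2, the microRNA genes Gm28003 and Gm24979, had 0 counts. For genes this short, 0 counts allows up to 3.49 and 1.89 TPM. Gm16225, whose window shares the 18-base run with Runx3, had 7 counts, all in replicate 4.

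The overlap of the members with other genes was checked by position and by sequence. No member shared exon bases with a gene on the same strand, and counting used the strand. Among antisense genes, Gm26626 overlaps 0.896% of Runx1 exon bases and had 0 counts, and Runx2os1 overlaps 5.87% of those of Runx2 and had 8. Runx2os2 and Runx2os3 had 0 counts, and Gm16224, within Runx3, had 4. Supt3, which runs opposite to Runx2 over part of its span, was at 8.12 ± 0.70 TPM, above Runx2 itself, and shared no exon bases with it. Gm22063 and Gm24629, small RNA genes within Cbfb, had 5 counts each, and n-R5s27, within Runx2, had 0, which allows up to 2.00 TPM. Stretches of 50 bases in the members' transcripts were sought in transcripts of other genes, as they stand or as the reverse complement. For Runx2, 5.66% also occurred in transcripts of 9 other genes, 470 of these 513 in the antisense Runx2os1. In Runx3 the share was 1.13%, 56 stretches found over 573 other genes. In Runx1 it was 0.470%, all in the antisense Gm26626, and in Cbfb it was 0%. Matches on the same and on the opposite strand were not counted apart, so for counting by strand these shares are upper limits. No such stretch was common to transcripts of any 2 members, so fragments of that length or more that match exactly could not pass between them.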

How the data were processed

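The deposited values are whole-number counts of fragments per gene. Per the file headers, the authors made them with featureCounts 1.4.6-p4 on mm10 with GENCODE M13, over exons grouped by gene, with reverse-stranded pairs whose ends both aligned. Fragments aligning to several places were not requested. The sources used here do not give the aligner's version. The deposited gene length is the summed exon length. TPM was computed here from counts and this length. Symbols, gene types and transcripts came from GENCODE M21, which named 50376 of the 50600 genes, and promoter windows from RefSeq.

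Totals were 43821767, 58696937, 73819468 and 52005209 counts for replicates 1 to 4, numbered as the labels do. A gene with 0 counts was allowed up to 3, as TPM in the library where that is highest. Floors and intervals cover counting error only, and fragments copied by PCR are not independent molecules.

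Levels were given as mean ± SD of 4 libraries. Ratios were tested by exact sign-flip permutation over the libraries (two-sided), and libraries by the quasi-likelihood test of edgeR 4.0.16 (R 4.3.3; TMM, filterByExpr for 1 group, intercept and lone library), after a check on simulated counts. DESeq2 1.42.0, other scalings, filters and lengths and leaving out each replicate were alternatives. Motifs were sought with Python 3.11.15. Members and lists were chosen with earlier results of these data known. The text names the members, the 4 highest and 3 lowest of each pathway list and other listed genes, genes overlapping or next to a member, and the 3 expressed genes nearest to each member in centred log2 TPM. Of these, 1 such nearest gene and 1 listed gene are not reported here by name, and the listed gene is not drawn.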

Additional observations from a re-analysis of the deposited data

Results flagged for a closer look

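Of 72 quantities checked for a single library far from the rest, 4 had a gap above Dixon's 95% critical value, and chance gives about 1 in 20. The quantities were the levels, ratios and shares of the members and the levels of pathway list genes. Ratios and shares are not independent of the levels behind them. None of the 4 was a level, ratio or share of the members. Ctla4 was at 484 TPM in replicate 2, against 425 to 434 in the other 3. Pim1 was at 375 TPM in replicate 1, against 413 to 417. Smurf1 was at 29.2 TPM in replicate 4, against 26.4 to 26.6. Prf1 was at 0.404 TPM in replicate 2, against 0.0771 to 0.0919, and rested on 3 to 18 counts per library.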

How the results depend on the processing

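The order of the members and the direction of every ratio between their per-length levels held with the longest transcript as the length. The other scalings multiply all genes of a library by the same factor, so they could not change order, ratios or shares. Leaving out a library could not change the order either, because it held in every library. Levels moved with the unit. Runx1 was 6.99 as TMM-scaled RPKM and 6.99 as FPKM, Runx2 0.171 in both, Runx3 23.9 in both and Cbfb 51.5 in both, and over nuclear protein-coding genes alone TPM was 25.7 for Runx1 and 189 for Cbfb. By the longest transcript, Runx1 was 38.3 TPM, 31.3% of the Runx sum, with Runx3 68.2% of it and Cbfb 1.38 times the sum. Leaving out 1 replicate gave coefficients of variation from 2.79% to 5.90% for Runx1 and from 2.63% to 6.91% for Cbfb, both lowest without replicate 4. Genes called in replicates 1, 2 and 3 were 18, 28 and 8 by DESeq2. With no expression filter they were 105, 60, 35 and 16 in replicates 1 to 4. With 1 other replicate left out they ranged from 23 to 341 in replicate 1 (341 without replicate 4), 3 to 52 in replicate 2 (52 without replicate 1), 16 to 21 in replicate 3 and 2 to 9 in replicate 4, and the cause was not tested. Of 96 member differences under these alternatives 0 were called (smallest adjusted p 0.189; DESeq2 gave 1 as NA). The 4 that reversed were differences of replicate 1 near 0: Runx1 was -0.0070 without replicate 2 and -0.017 without replicate 3 and ranged up to 0.058, and Cbfb was 0.0094 and 0.031 and ranged down to -0.066. No paired analysis between groups was possible because there is 1 group. The pairs of libraries seen for Xist and Ddx3y entered no fit, so any difference between them is part of the spread. Depth was lowest for Runx2, with 68 to 128 counts per library. Counting error alone gives Runx2 a coefficient of variation of 11.0%. The biological coefficient of variation fitted by edgeR was 0.208. That fit draws each gene towards the trend over genes, here 0.223, so the value is not a measure of Runx2 alone.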
